A study of Mus musculus with 9 samples.

Results

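The 10 genes described here encode the hypoxia-inducible factor (HIF) subunits and the proteins that act on them directly: the oxygen-regulated subunits Hif1a, Epas1 and Hif3a, their partner Arnt, the prolyl hydroxylases Egln1, Egln2 and Egln3, the degradation factor Vhl, the asparaginyl hydroxylase Hif1an and the coactivator competitor Cited2. They were taken as every non-control probe that the array files name for these genes, which gave 18 of the 56605 probes. All 10 genes are among the 24150 genes and unnamed features that were tested. To enter the test a probe had to exceed its background clearly on all 3 arrays of some group, and 17 of the 18 probes met this. The Hif3a probe that met it did so through the ob/ob groups, since it was well above background on 2 of the 3 wild-type arrays.

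RNA was measured in kidney glomeruli that had been isolated with magnetic beads from male BTBR mice aged 22 weeks. The 3 groups were BTBR wild-type mice on vehicle food, BTBR ob/ob mice on vehicle food and BTBR ob/ob mice on food with enarodustat, an inhibitor of the HIF prolyl hydroxylases, over 18 weeks of treatment. All mice shared the BTBR strain and the male sex, ob/ob mice lack functional leptin from birth in all tissues, and there was no wild-type group on enarodustat. There were 3 samples per group, 1 array for each, and the labels do not say whether a sample is 1 mouse or a pool. The p-values set group differences against a spread estimated between samples, and how many mice they cover is unknown.

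In cells with enough oxygen, the prolyl hydroxylases mark the HIF alpha subunits, the VHL protein binds the marked form, and the proteasome destroys it. When oxygen falls or the hydroxylases are inhibited, the alpha subunit persists, pairs with ARNT and binds DNA at hypoxia response elements with the core ACGTG or GCGTG. In the kidney, HIF-2 alpha is best known from endothelial and interstitial cells and HIF-1 alpha from tubular epithelium. The arrays measured RNA, not the alpha proteins or the activity of the hydroxylases.

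Levels are on a log2 scale set to the 75th percentile of each array's probes, so 0 is the 75th percentile and a difference of 1 is a 2-fold change. Levels of different probes are not compared with each other, because probes differ in how strongly they bind. Changes are differences of group means ± SE from limma, and a change was called at an adjusted p under 0.05 over all features. Across the arrays the 75th percentile of the signal ranged from 210.4 to 325.3 units, 62.3% to 68.3% of probes were well above background, and no spot was saturated. Of the member probes, 16 were well above background on all 9 arrays. All 12 podocyte, 12 glomerular endothelial and 10 mesangial markers were well above background on each array. The 16 proximal tubule markers were above it everywhere too, and their median level stood at 3.92 in wild-type replicate 3 and 3.03 in enarodustat replicate 2, against -1.87 to 1.04 on the other arrays. Of the 9 arrays, 8 lay on one slide and enarodustat replicate 3 lay on another. By the array identifiers in the files, the first row of the shared slide held the 3 wild-type arrays and ob/ob vehicle replicate 1, and the other row held ob/ob vehicle replicates 2 and 3 and enarodustat replicates 1 and 2. No wild-type array shared a row with an enarodustat array, so position and group are largely confounded. With position as a block, both comparisons with wild type rest on ob/ob vehicle replicate 1.

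Hif1a RNA, which encodes HIF-1 alpha, rose in ob/ob glomeruli on vehicle and on enarodustat, both against wild type. Its probe A_55_P2936147 lies at chr12:75047819-75047878 of mm9, on the strand of the gene. The wild-type arrays read 2.17, 2.18 and 1.93, the ob/ob vehicle arrays 2.85, 2.81 and 3.13, and the enarodustat arrays 2.75, 2.85 and 2.89. Every ob/ob array was thus above every wild-type array, while the values of the ob/ob groups overlapped. The group means were 2.09 ± 0.14, 2.93 ± 0.18 and 2.83 ± 0.07 (SD, n = 3).

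Against wild type, Hif1a was 1.79-fold higher on vehicle (log2 change 0.84 ± 0.13, 95% interval 0.54 to 1.13, limma adjusted p = 0.00745). With enarodustat it was 1.67-fold higher than in wild type (0.74 ± 0.13, limma adjusted p = 0.0111). Between the ob/ob groups the change was -0.10 ± 0.13 (95% interval -0.39 to 0.19, limma adjusted p = 0.863), so no change was detected, and the interval leaves room for changes of that size in either direction. When position on the slide was a block, both differences from wild type kept their sign and lost the call (0.75, limma adjusted p = 0.169, and 0.58, limma adjusted p = 0.496). With that block both differences rest on ob/ob vehicle replicate 1, the only ob/ob array in the row of the wild-type arrays, so position and group cannot be told apart. Within the first row of the slide ob/ob vehicle replicate 1 was 0.75 above the wild-type mean, and within the other row the enarodustat mean was -0.17 from the vehicle mean.

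Macrophage markers were also higher on the ob/ob arrays: 8 of 12 rose in ob/ob vehicle and 6 of 12 with enarodustat against wild type. Their summed signal, in multiples of the 75th percentile, was 12.0 to 18.2 in wild type, 46.2 to 57.0 in ob/ob vehicle and 25.2 to 40.6 with enarodustat. The summed endothelial signal was 532 to 591 in wild type, 669 to 697 in ob/ob vehicle and 665 to 688 with enarodustat. That of the mesangial markers was 261 to 430, 629 to 699 and 537 to 635. The podocyte sum went the other way, with 1138 to 1255, 792 to 1013 and 678 to 859. The part of these cell types in the Hif1a result was not tested. In RNA of a whole tissue, fewer cells of a type and less RNA per cell cannot be told apart. With the proximal tubule markers as a covariate, the Hif1a changes from wild type were 0.70 (limma adjusted p = 0.0435) and 0.69 (limma adjusted p = 0.0141). Without wild-type replicate 3 and enarodustat replicate 2, the arrays with the highest tubule markers, they were 0.76 on vehicle (limma adjusted p = 0.0362) and 0.65 with enarodustat, which was then not called (limma adjusted p = 0.0641).

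The files name a further pair of probes for Hif1a. A_66_P107191 is shown because its 60 bases lie at chr12:75027538-75027597 of mm9 on the strand opposite to the gene, so it was not designed to the Hif1a message.

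Hif1a opposite-strand probe: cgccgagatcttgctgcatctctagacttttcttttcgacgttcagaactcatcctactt

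It read -2.66, -2.58 and -2.64 in wild type, -2.35, -2.44 and -1.66 in ob/ob vehicle and -1.66, -1.49 and -2.09 with enarodustat. All ob/ob arrays were above all wild-type arrays here too, with ob/ob vehicle replicate 3 among the enarodustat values. Tested as a feature of its own, it changed by 0.47 ± 0.24 in ob/ob vehicle (limma adjusted p = 0.250) and rose by 0.88 ± 0.24 with enarodustat against wild type (limma adjusted p = 0.0444 over the probes that passed the filter and 0.101 over all probes). A_55_P2149011, on the strand of the gene at chr12:75033965-75034024, ranged from -4.91 to -3.75 with overlapping groups and differed between ob/ob vehicle and wild type by 0.13 ± 0.35. Averaging the 3 probes gave Hif1a changes of 0.48 (limma adjusted p = 0.198) and 0.62 (limma adjusted p = 0.0916) from wild type, neither called.

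**Figure D1:**
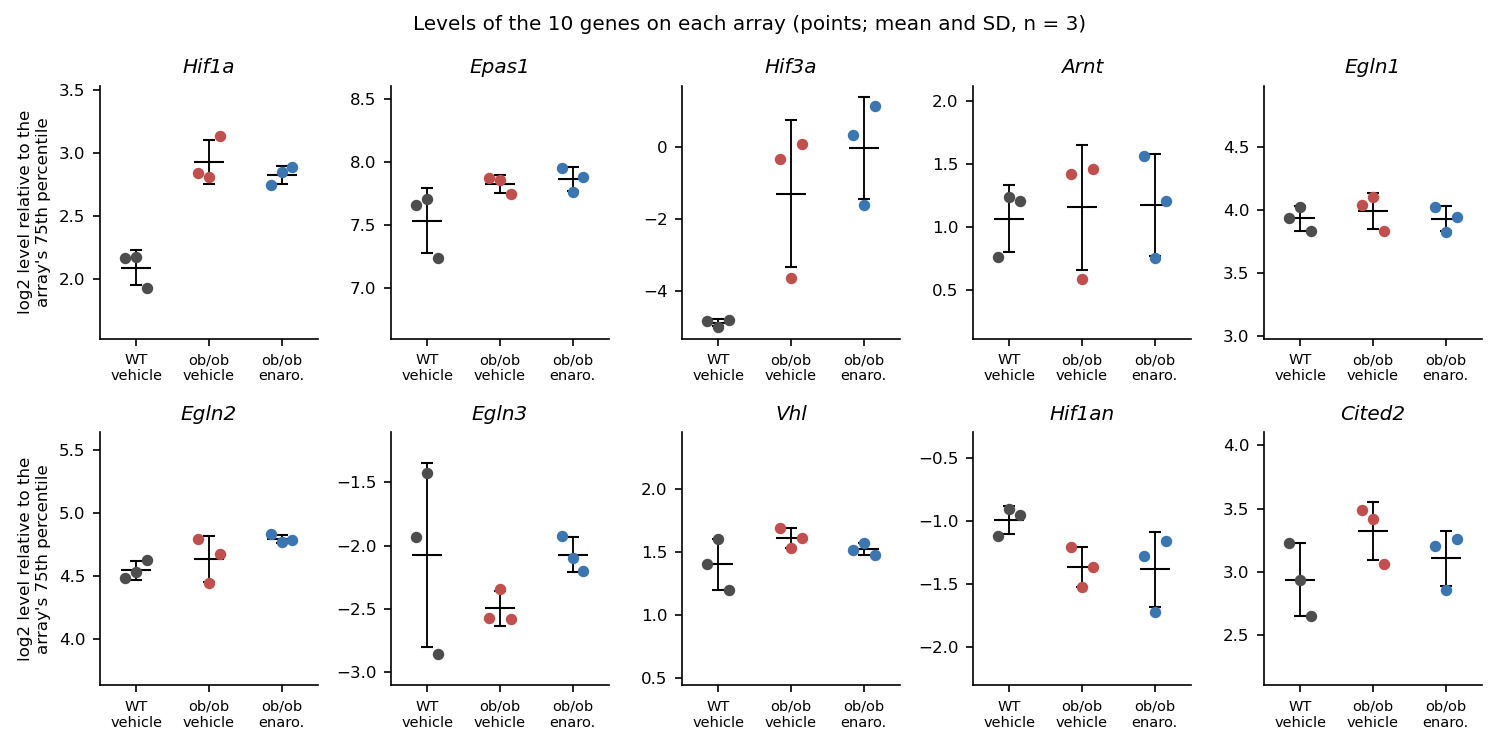
Log2 level relative to the array's 75th percentile (vertical axis) of the 10 genes in wild-type vehicle, ob/ob vehicle and ob/ob enarodustat glomeruli. Points are arrays, bars are the mean and SD (n = 3), and each panel has its own scale. Hif1a is higher on all ob/ob arrays than on the wild-type arrays, and Hif3a spans 6.16 log2 units across the 9 arrays.

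Epas1, which encodes HIF-2 alpha, was not called in any comparison. Its probe A_51_P250058 (chr17:87232615-87232674) read 7.66, 7.71 and 7.24 in wild type, 7.87, 7.86 and 7.75 in ob/ob vehicle and 7.96, 7.76 and 7.88 with enarodustat. The ob/ob values all lay above the wild-type values, of which replicate 3 was lowest, and the ob/ob groups overlapped. The changes from wild type were 0.29 ± 0.14 on vehicle (limma adjusted p = 0.260) and 0.33 ± 0.14 with enarodustat (limma adjusted p = 0.180). Between the ob/ob groups the change was 0.04 ± 0.14 (95% interval -0.29 to 0.36, limma adjusted p = 0.964).

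Hif3a had the widest range of the 10 genes. It encodes an alpha subunit with splice forms that can restrain the other subunits. The probe A_55_P2015541, at chr7:17616855-17616914 on the strand of the gene, read -4.83, -5.01 and -4.81 in wild type, -0.32, -3.64 and 0.09 in ob/ob vehicle and 0.35, -1.61 and 1.15 with enarodustat. Wild-type values were tight and low, and all ob/ob values were above them. In both ob/ob groups replicate 2 was the lowest array by a wide margin, and the ob/ob groups overlapped. The SD was 0.11 in wild type, 2.05 in ob/ob vehicle and 1.42 with enarodustat (n = 3). The limma model assumes a common spread for the 3 groups, so the SE and p-values of Hif3a are approximate.

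With enarodustat, Hif3a was 28.8-fold higher than in wild type (log2 change 4.85 ± 0.99, 95% interval 2.59 to 7.10, limma adjusted p = 0.0197). On vehicle it was 12.1-fold above wild type and missed the threshold (3.59 ± 0.99, 95% interval 1.34 to 5.85, limma adjusted p = 0.0648). Both folds rest partly on wild-type signals near background, so their size is approximate. With normexp background correction and quantile normalization the log2 changes were 2.35 with enarodustat, still called (limma adjusted p = 0.0460), and 1.58 on vehicle (limma adjusted p = 0.173). With the proximal tubule covariate they were 4.42 (limma adjusted p = 0.0212) and 2.43 (limma adjusted p = 0.303). Between the ob/ob groups the change was 1.25 ± 0.99, with an interval of -1.001 to 3.51 that holds 0 (limma adjusted p = 0.799). That value moved with single arrays: it was 0.08 without ob/ob vehicle replicate 2, 1.94 without ob/ob vehicle replicate 3, 2.04 without enarodustat replicate 2 and 0.66 without enarodustat replicate 3, which is also its value with the slide as a block. Normexp with quantile normalization gave 0.77. With enarodustat against wild type, 3 of 5 erythroid markers rose (median 3.20) and 9 of 12 podocyte markers fell (median -1.08). All 10 distal nephron changes were positive (median 2.74). The summed erythroid signal was 26.5, 6.53 and 6.95 on the wild-type arrays. That sum was 25.6, 21.3 and 52.2 in ob/ob vehicle and 125.9, 39.6 and 209.8 with enarodustat. The part of these cell types in the Hif3a result was not tested.

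The Hif3a calls changed when single arrays were left out. Without ob/ob vehicle replicate 2 the difference between vehicle and wild type was 4.77 and was called (limma adjusted p = 0.0118). The enarodustat difference from wild type lost its call without wild-type replicate 1, 2 or 3 (limma adjusted p = 0.0517, 0.0648 and 0.0549), without enarodustat replicate 1 (limma adjusted p = 0.0637) and without replicate 3 (limma adjusted p = 0.0675), at changes of 4.25 to 4.88. It also missed the threshold with the slide as a block (limma adjusted p = 0.0674), with position on the slide as a block (5.71, limma adjusted p = 0.312) and without both arrays that stood apart in the tubule markers (5.67, limma adjusted p = 0.0536). Within the first row of the slide, ob/ob vehicle replicate 1 was 4.57 above the wild-type mean.

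Another Hif3a probe, A_52_P288284, lies nearer the start of the transcript, at base 455 against base 6374 for the first, and at chr7:17637281-17637340. It is shown because it reads the same gene at another place and did not pass the filter.

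Hif3a probe nearer the start: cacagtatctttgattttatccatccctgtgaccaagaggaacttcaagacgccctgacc

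It was well above background on 0 wild-type, 2 ob/ob vehicle and 1 enarodustat arrays. The values were -6.56, -7.38 and -6.07 in wild type, -4.52, -6.02 and -4.45 in ob/ob vehicle and -4.66, -6.64 and -3.86 with enarodustat. Replicate 2 was again the lowest array of each ob/ob group, and the enarodustat group overlapped wild type.

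**Figure D2:**
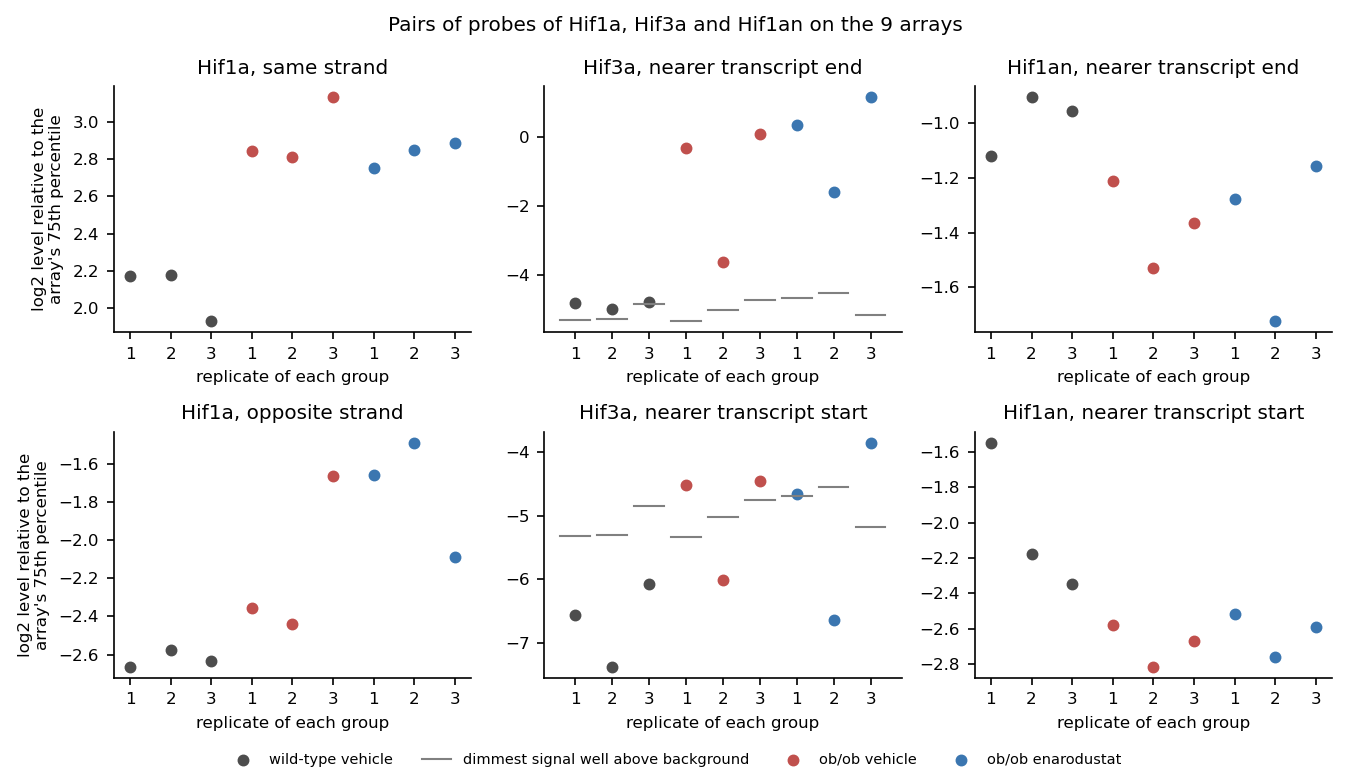
Log2 level relative to the array's 75th percentile of pairs of probes for Hif1a, Hif3a and Hif1an on the 9 arrays, by replicate and coloured by group, each panel on its own scale. Grey lines in the Hif3a panels mark the dimmest signal well above background on that array. Wild-type values of Hif3a lie near or under that line for both probes, and replicate 2 is the lowest ob/ob array of each group for both.

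Promoter windows of the called genes and of Egln3, whose ob/ob groups did not overlap, are shown because the HIF core can be read in them. They are the 250 bases before the RefSeq start in GRCm38.p6, on the strand of the gene, and capitals mark ACGTG or GCGTG on either strand. The windows are chr12:73907617-73907866 for Hif1a, chr7:17062428-17062677 for Hif3a and chr12:54203875-54204124 for Egln3.

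Hif1a promoter: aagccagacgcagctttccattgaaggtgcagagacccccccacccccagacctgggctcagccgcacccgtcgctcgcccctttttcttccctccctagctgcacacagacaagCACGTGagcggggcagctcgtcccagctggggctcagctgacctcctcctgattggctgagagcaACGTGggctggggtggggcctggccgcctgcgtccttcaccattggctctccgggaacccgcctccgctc
Hif3a promoter: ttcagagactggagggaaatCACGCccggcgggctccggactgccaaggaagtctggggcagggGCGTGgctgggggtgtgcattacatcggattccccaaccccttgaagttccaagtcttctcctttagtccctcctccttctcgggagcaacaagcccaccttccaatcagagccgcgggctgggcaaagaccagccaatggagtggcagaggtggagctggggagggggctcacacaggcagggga
Egln3 promoter: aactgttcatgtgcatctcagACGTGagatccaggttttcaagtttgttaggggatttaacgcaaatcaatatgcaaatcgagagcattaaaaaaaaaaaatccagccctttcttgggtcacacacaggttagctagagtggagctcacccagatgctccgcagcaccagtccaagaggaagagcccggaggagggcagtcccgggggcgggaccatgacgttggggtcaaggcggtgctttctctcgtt

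In the Hif1a window ACGTG occurs at 70 bases before the start and, on both strands in an overlapping CACGTG, at 134 and 135 bases. The Hif3a window holds GCGTG at 186 bases before the start and, on the opposite strand, at 230 bases, and the Egln3 window holds ACGTG at 229 bases. Windows were found for 9 of the 10 genes, 10 windows in all since Egln2 has a pair of starts, and 8 of them (80%) held ACGTG or GCGTG on either strand. Among all 32851 windows of the same length the share was 38.6%, with 16.6% for ACGTG and 28.2% for GCGTG. Overlapping matches on both strands occurred in 2 of the windows, those of Hif1a and Cited2. The windows of Arnt, Egln1, Egln2 and Cited2, genes that were not called, also held matches. For Vhl and Hif1an no match was found in these windows. A match of 5 letters is a description of the sequence, and binding was not measured.

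Arnt, a partner with which HIF alpha subunits bind DNA, did not differ between groups beyond its spread. Its probe A_55_P2100895 read 0.76, 1.24 and 1.21 in wild type, 1.42, 0.59 and 1.46 in ob/ob vehicle and 1.57, 0.76 and 1.21 with enarodustat. The groups overlapped fully, with changes of 0.09, 0.02 and 0.11 (each ± 0.29) for ob/ob vehicle against wild type, enarodustat against ob/ob vehicle and enarodustat against wild type. The adjusted p in limma was 0.887, 0.992 and 0.853. The other Arnt probes gave changes of -0.03 ± 0.18 and -0.13 ± 0.14 for ob/ob vehicle against wild type, with overlapping groups.

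The prolyl hydroxylase genes, whose products are the targets of enarodustat, were not called in any comparison. Egln1, which encodes PHD2, the main oxygen sensor of most cells, read 3.94, 4.02 and 3.83 in wild type, 4.04, 4.10 and 3.83 in ob/ob vehicle and 4.02, 3.83 and 3.95 with enarodustat. Its whole range over the 9 arrays was 0.28. The change between the ob/ob groups was -0.06 ± 0.12 (95% interval -0.33 to 0.21, limma adjusted p = 0.918).

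Egln2, which encodes PHD1, read 4.48, 4.53 and 4.63 in wild type, 4.80, 4.44 and 4.67 in ob/ob vehicle and 4.83, 4.77 and 4.78 with enarodustat. The enarodustat values lay above the wild-type values and overlapped the vehicle values. The difference from wild type with enarodustat was 0.25 ± 0.12 (limma adjusted p = 0.214), and the other Egln2 probe, A_55_P2005330, gave 0.21 ± 0.20 with overlapping groups. Between the ob/ob groups the change of Egln2 was 0.16 ± 0.12 (95% interval -0.11 to 0.43, limma adjusted p = 0.788).

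Egln3, which encodes PHD3 and is itself a known HIF target, was the only one of the 10 genes whose ob/ob groups did not overlap. The values were -1.93, -1.43 and -2.86 in wild type, -2.57, -2.34 and -2.58 in ob/ob vehicle and -1.93, -2.10 and -2.20 with enarodustat. All enarodustat arrays were above all vehicle arrays, and wild type spanned both, with replicate 3 the lowest and replicate 2 the highest of the 9. The change between the ob/ob groups was 0.42 ± 0.31 (95% interval -0.28 to 1.13, limma adjusted p = 0.787), so it was not called. Groups separated in the higher direction for 6.5% of all features in this comparison. Within the other row of the slide the enarodustat mean was 0.45 above the vehicle mean. Distal nephron markers stood apart between the same groups, with all 10 changes positive and a summed signal of 5.48 to 34.6 on vehicle and 76.3 to 141 with enarodustat. Their part in the Egln3 and target gene values was not tested.

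Against wild type, Egln3 changed by -0.42 ± 0.31 on vehicle (limma adjusted p = 0.455). Without wild-type replicate 3, the wild-type array with the highest proximal tubule markers, that change was -0.82 and was called (limma adjusted p = 0.0492). With array weights it was -0.88 (limma adjusted p = 0.0278). The difference of enarodustat from wild type was 0.00 ± 0.31.

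Vhl, which encodes the recognition subunit of the ligase that binds hydroxylated HIF alpha, read 1.41, 1.60 and 1.20 in wild type, 1.69, 1.53 and 1.61 in ob/ob vehicle and 1.52, 1.57 and 1.48 with enarodustat. All 3 groups overlapped. The changes were 0.21 ± 0.12 (limma adjusted p = 0.353), -0.09 ± 0.12 (limma adjusted p = 0.872) and 0.12 ± 0.12 (limma adjusted p = 0.588) in the same order of comparisons as for Arnt.

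Hif1an encodes factor inhibiting HIF, an asparaginyl hydroxylase that blocks coactivator binding. It was lower on every ob/ob array than on any wild-type array, without a call. Its probe A_51_P521171 (chr19:44650157-44650216) read -1.12, -0.91 and -0.95 in wild type, -1.21, -1.53 and -1.36 in ob/ob vehicle and -1.28, -1.72 and -1.16 with enarodustat. The changes from wild type were -0.38 ± 0.17 on vehicle (limma adjusted p = 0.215) and -0.39 ± 0.17 with enarodustat (limma adjusted p = 0.171). Between the ob/ob groups the change was -0.02 ± 0.17. With array weights the vehicle change was -0.45 and was called (limma adjusted p = 0.0489).

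A further Hif1an probe is shown because it reads the message near its start, at base 319 against base 5582, and was likewise lower on every ob/ob array than in wild type. A_52_P49233 lies at chr19:44637898-44637957.

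Hif1an probe nearer the start: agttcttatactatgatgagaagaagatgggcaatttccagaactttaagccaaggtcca

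It read -1.55, -2.18 and -2.35 in wild type, -2.58, -2.82 and -2.67 in ob/ob vehicle and -2.52, -2.76 and -2.59 with enarodustat. The ob/ob groups overlapped, and their means stood in the opposite order to those of the first probe. The changes from wild type were -0.67 ± 0.21 on vehicle (limma adjusted p = 0.0850 over the probes that passed the filter) and -0.60 ± 0.21 with enarodustat (limma adjusted p = 0.0998).

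Cited2, a HIF target whose product competes with HIF alpha for the coactivators CBP and p300, read 3.22, 2.93 and 2.65 in wild type, 3.49, 3.42 and 3.06 in ob/ob vehicle and 3.20, 2.86 and 3.26 with enarodustat. The groups overlapped in all comparisons. The changes were 0.39 ± 0.19 for ob/ob vehicle against wild type (limma adjusted p = 0.267) and -0.22 ± 0.19 for enarodustat against ob/ob vehicle (limma adjusted p = 0.810). The other Cited2 probe, A_55_P2740081, gave -0.04 ± 0.29 and -0.26 ± 0.29.

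Counted over the 10 genes, the number called was 1 for ob/ob vehicle against wild type (Hif1a), where 7.55% of all features were called. It was 0 for enarodustat against ob/ob vehicle, where limma called 0% of features and 1692 (7.01%) had an unadjusted p under 0.05, none of them a member. For enarodustat against wild type it was 2 (Hif1a and Hif3a), beside 10.2% of all features. Groups did not overlap for 4 members in the first comparison, 3 higher and 1 lower, beside 30.7% of all features (17.8% higher and 12.9% lower). They did not overlap for 1 member in the second, beside 16%, and for 5 in the third, 4 higher and 1 lower, beside 30.8% (16.8% higher and 14% lower). The median change of the members was 0.15, 0.00 and 0.14, where that of all features was 0.02, -0.03 and -0.01. The 3 comparisons share arrays pairwise, so their values are not independent of each other.

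**Figure D3:**
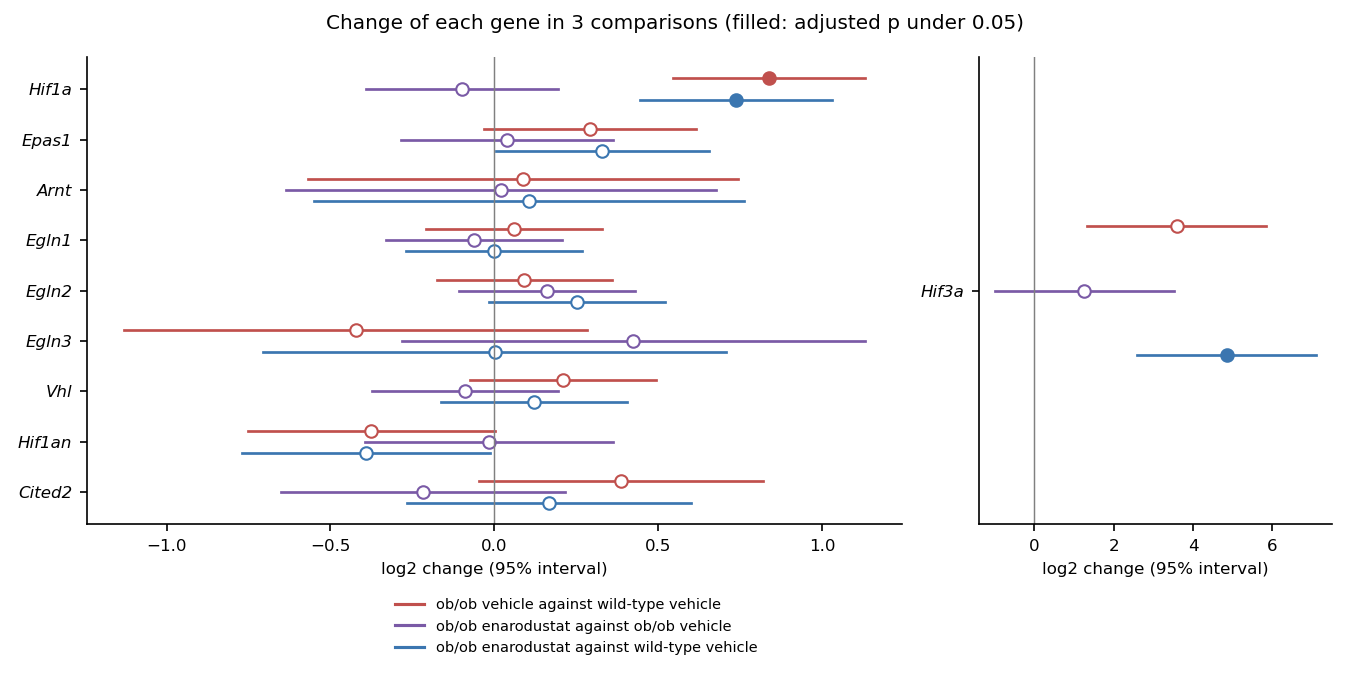
Log2 change (horizontal axis) with its 95% interval for each gene in the 3 comparisons, Hif3a on its own scale. Filled points passed an adjusted p under 0.05 in limma. Filled points are seen for Hif1a in both comparisons with wild type and for Hif3a with enarodustat against wild type, and all intervals for enarodustat against ob/ob vehicle include 0.

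Among 25 other genes of HIF stability, partnering and transcription, Arnt2 was called and the other 24 were not. Arnt2, a homologue of Arnt, read -0.57, -0.38 and -0.25 in wild type, -1.46, -1.56 and -1.41 in ob/ob vehicle and -1.49, -2.07 and -1.37 with enarodustat. It fell by 1.07 ± 0.19 on the log2 scale in ob/ob vehicle (limma adjusted p = 0.0117) and by 1.24 ± 0.19 with enarodustat against wild type (limma adjusted p = 0.00698), with no overlap. The share called was 4% in both comparisons with wild type, beside 7.55% of all features on vehicle and 10.2% with enarodustat. Between the ob/ob groups it was 0%, as over all features. P4htm, a transmembrane prolyl hydroxylase of the same enzyme class, had the smallest p of the list between the ob/ob groups (0.29 ± 0.12, limma adjusted p = 0.708). Bhlhe41, a repressor induced by HIF, came next at 2.09 ± 0.96 (limma adjusted p = 0.709). It read -7.63, -4.53 and -7.14 in wild type, -4.10, -5.29 and -7.02 in ob/ob vehicle and -3.99, -3.86 and -2.30 with enarodustat. Some wild-type and vehicle values lay under the dimmest signal well above background. It thus entered the test through the enarodustat group, and the size of its change is approximate. The median change of the list was 0.02, -0.03 and -0.01, the same to 2 decimals as that of all features.

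Target genes of HIF give the transcriptional readout that the levels of the subunits do not. Of 32 such genes, 30 were tested, and Epo and Hk2 did not pass the filter. In ob/ob vehicle against wild type 4 rose and 2 fell (20%), where 4.89% of all features rose and 2.66% fell. The count was 0 with the proximal tubule covariate, where 675 of all features were called, and 1 with position on the slide as a block. Among those that rose, Edn1, which encodes endothelin-1, did so by 1.48 ± 0.24, the lactate exporter gene Slc16a3 by 0.81 ± 0.14, and Pdk1, a kinase that restrains pyruvate oxidation, by 0.92 ± 0.22. Tfrc, the transferrin receptor, fell by 2.20 ± 0.36 and Vegfa by 0.72 ± 0.18. Podocytes are a main source of glomerular Vegfa, and 7 of 12 podocyte markers fell in the same comparison, from a summed signal of 1138 to 1255 in wild type to 792 to 1013. Their part in the Vegfa result was not tested.

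Between the ob/ob groups limma called 0 target genes, as it called 0% of all features. An unadjusted p under 0.05 was found for 10 of the 30, where the share over all features was 7.01%. Among those 10, Vegfa was lower with enarodustat (-0.44 ± 0.18). Of the 30 changes, 25 were positive and 5 negative, with a median of 0.22 where the median of all features was -0.03. No cell marker was called, as no feature was. Changes were positive for 15 of 16 proximal tubule markers (median 1.42) and 10 of 10 distal nephron markers (median 2.26). So were those of all 5 tested erythroid markers (median 1.64). Changes were negative for 11 of 12 podocyte (median -0.21) and 10 of 12 macrophage markers (median -0.26). The same held for 8 of 10 mesangial (median -0.13) and 7 of 12 endothelial markers (median -0.02). The part of these cell types in the target gene values was not tested. The summed erythroid signal was 21.3 to 52.2 on vehicle and 39.6 to 209.8 with enarodustat, and that of the proximal tubule markers 40.8 to 78.4 and 57.6 to 221.7. Bnip3, a mitophagy receptor, had the smallest p, with 2.74, 2.37 and 2.62 on vehicle against 3.26, 3.68 and 3.55 with enarodustat. Slc16a3 followed, with -0.34, -0.40 and -0.17 against 0.35, 0.72 and 0.48. Neither gene overlapped between the groups, as was the case in the higher direction for 6.5% of all features. The changes were 0.92 ± 0.16 and 0.82 ± 0.14, both at a limma adjusted p of 0.377.

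Enarodustat against wild type called 13 of the 30 targets (43.3%), 12 higher and 1 lower, with a median of 0.61, where 6.1% of all features rose and 4.09% fell. In the same comparison 3 of 5 erythroid markers rose (median 3.20), 6 of 12 macrophage markers rose (median 1.63), 1 of 10 distal nephron markers rose with all 10 changes positive (median 2.74), and 9 of 12 podocyte markers fell (median -1.08). The summed signal of the podocyte markers was 678 to 859 with enarodustat and that of the erythroid markers 6.53 to 26.5 in wild type. The part of these cell types in the target gene values, the Vegfa fall included, was not tested. Among those with the smallest p were Slc16a3 (1.63 ± 0.14), Pdk1 (1.80 ± 0.22), Bnip3 (1.06 ± 0.16) and Edn1 (1.55 ± 0.24), which rose, and Vegfa, which fell by 1.16 ± 0.18. For Slc16a3, Pdk1 and Bnip3 all enarodustat arrays were above all vehicle arrays, whereas Edn1 overlapped between the ob/ob groups. Without wild-type replicate 3 and enarodustat replicate 2, 5 targets rose and 1 fell. With position on the slide as a block limma called 0 of all features in this comparison, and 2677 had an unadjusted p under 0.05. Wild-type and enarodustat arrays share no row, so position and group cannot be told apart here.

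**Figure D4:**
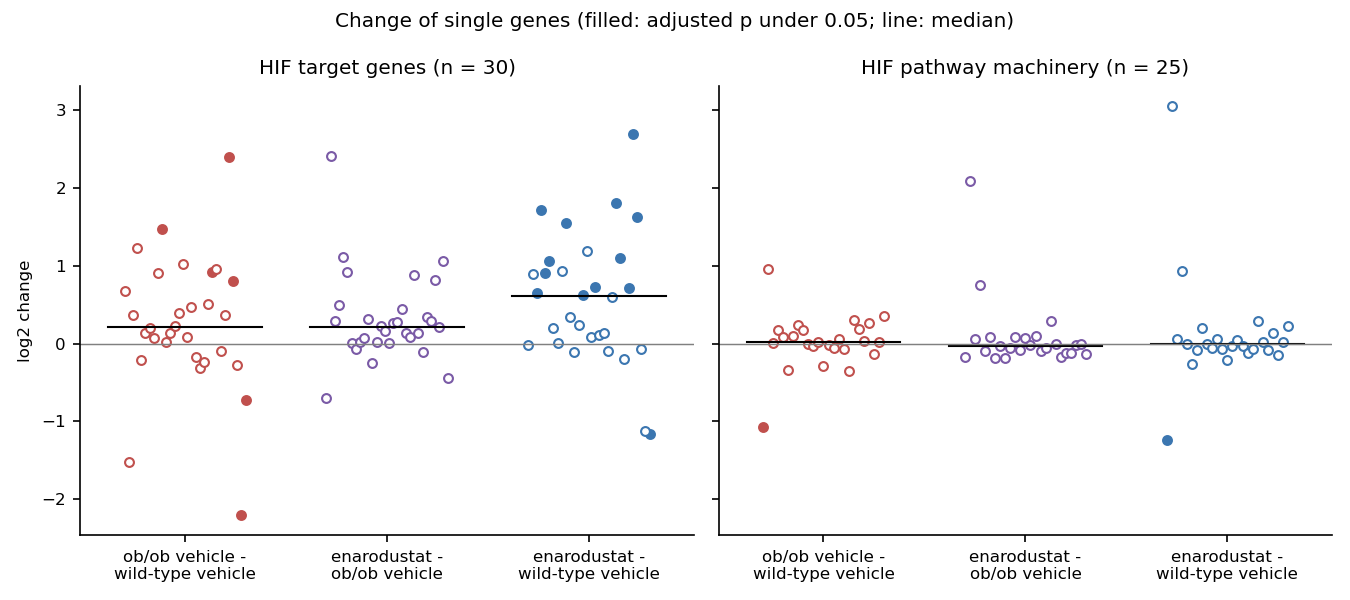
Log2 change (vertical axis) of each HIF target gene (30 genes, left) and each further gene of the HIF machinery (25 genes, right) in the 3 comparisons. Points are genes, filled where limma gave an adjusted p under 0.05, and black lines are medians. The median of the targets is 0.21, 0.22 and 0.61, and that of the machinery genes lies within 0.03 of 0.

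The genes whose profile over the 9 arrays was most like that of a member were taken by the smallest root mean square difference of centred log2 levels among 15416 named features. Features of the profile that they share with the member follow largely from this choice. For Hif1a these were Pcdhb6 (0.073), Scpep1 (0.088) and Fkbp1b (0.089), and Scpep1 read 2.69 to 3.02 in wild type against 3.67 to 3.80 on the ob/ob arrays. For Epas1 they were Ift74 (0.034), Cdk2 (0.054) and Ctbp2 (0.055), each of which was also lowest in wild-type replicate 3. Capn3 (0.156), Efcab5 (0.219) and Inca1 (0.222) were nearest to Egln3, and Casp6 (0.080), Septin7 (0.082) and Polk (0.085) to Cited2.

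For Hif3a, added to this search after its values were seen, the nearest genes were Zbtb16 (0.639), Ripor3 (0.703) and Timp4 (0.766). Zbtb16, a zinc finger transcription factor, read -0.85, -0.55 and -0.81 in wild type, 2.12, 0.01 and 3.28 in ob/ob vehicle and 4.37, 1.16 and 4.17 with enarodustat. Replicate 2 was the lowest array of each ob/ob group for all 3 of these genes, as it was for Hif3a. They were chosen for their likeness to Hif3a, so this shared feature follows largely from the choice.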

How the data were processed

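Per the file headers, the authors used Agilent Feature Extraction 11.5.1.1 on the scans. The processing notes of the submitters list limma as well, with no role. Each deposited file gives linear spot intensity values, background-subtracted and not normalized between arrays, with mm9 probe coordinates, per the file headers. The deposited value table of the authors gives log2 values, whose scale, centring and direction are unstated. Set against the scanner files, they equal the log2 processed signal minus about the 75th percentile, with no centring of genes and none of the 3 left unknown, and column medians of -3.07, -3.03 and -2.93 (wild type), -3.10, -3.07 and -3.06 (ob/ob vehicle) and -3.04, -2.95 and -3.05 (enarodustat). It served as an alternative.

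From the processed signals, control spots and outlier spots were left out, 32 probes were removed because an array had nothing but outlier spots for them, and log2 levels relative to each array's 75th percentile were computed. After the filter 36671 probes were kept, and each gene was represented by its brightest probe. Gene names came from the RefSeq table of GRCm38.p6 by accession (32975 probes), symbol (10221) or synonym (518), with the file's own name for 2573 and none for 10286. A 3-group model was fitted to all 9 arrays with limma 3.58.1 in R 4.3.3 (lmFit, contrasts.fit, eBayes) and Benjamini-Hochberg adjustment over all features, and it was tested on simulated data. Figures used matplotlib 3.10.9 in Python 3.11.15. The number of arrays limits the precision.

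The members and gene lists were chosen with earlier results of these data known. All members are described. List genes are named where called, up to the 6 smallest p values per list and comparison, or the 2 smallest where none was called, except 1 that is not reported here, and 3 genes of like profile are named for Hif1a, Epas1, Egln3 and Cited2. Alternatives were other normalizations, filters, probe rules, blocks, array weights, a tubule covariate and leaving out arrays. Position on the slide as a block and leaving out a pair of arrays were chosen after seeing the data.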

Additional observations from a re-analysis of the deposited data

How the results depend on the processing

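With 3 arrays a group, changes under about 0.3 lay within the intervals of most of these genes, and the wild-type level of Hif3a lay near background. The 30 member changes were recomputed under 23 alternatives, and no called change turned its sign. The Hif1a call against wild type held under 21 of 23 alternatives on vehicle and 20 of 23 with enarodustat, and the Hif3a call with enarodustat under 14 of 22, since Hif3a was not tested when probes had to be well above background on all arrays. The causes of these differences were not tested. For enarodustat against ob/ob vehicle the count of members called was 0 under every alternative run. The number of all features called against wild type was 4181 and 4527 with array weights, 1005 and 1227 without the filter, 675 and 2278 with the tubule covariate, 1516 and 1365 with the slide as a block, 74 and 0 with position on the slide as a block, and 967 and 1212 without wild-type replicate 2, where it was 1823 and 2461 in the report. No scaling moved the median of all features by more than 0.1.

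The members called for ob/ob vehicle against wild type, 1 in the report, numbered 0 with the mean of the probes and with position on the slide as a block, 4 with array weights (Egln3, Hif1a, Hif1an and Hif3a), and 1 to 2 when each array was left out in turn. For enarodustat against wild type, 2 in the report, the number was 1 with the stricter filter, with the mean of the probes and with the slide as a block, 0 with position on the slide as a block, 0 without the pair of arrays with high tubule markers (wild-type replicate 3, enarodustat replicate 2), and 1 to 2 with each array left out.

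The replicate numbers do not pair the samples: deviations of same-numbered arrays correlated at -0.31 to 0.27, and 4 of 9 arrays matched their own number best. With the replicate number as a block the members called were 2 for ob/ob vehicle against wild type, with Hif3a at 3.59 (limma adjusted p = 0.0271), and 2 for enarodustat against wild type, among 1408 and 1954 features in all.

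Sign changes were seen only in uncalled changes, the largest of them 0.17 in the report (Cited2, enarodustat against wild type). For enarodustat against ob/ob vehicle, quantile normalization, normexp with quantile normalization and the array median gave -0.0498, -0.0487 and -0.0241 for Epas1, and the array median -0.0426 for Arnt. The mean of the probes gave 0.136 for Hif1a and 0.0242 for Hif1an. Hif1an was 0.049 with array weights, 0.068 with the tubule covariate and 0.151 without the pair of arrays. Leaving out each array gave -0.266 to 0.229 for Arnt, -0.00774 to 0.0893 for Epas1, -0.159 to 0.00184 for Hif1a and -0.132 to 0.151 for Hif1an.

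For ob/ob vehicle against wild type, quantile normalization without and with normexp gave -0.052 and -0.0699 for Egln1 and -0.0429 and -0.0192 for Egln2. Arnt was -0.0227 with the mean of the probes, -0.0753 with array weights, -0.161 with the tubule covariate and -0.0663 to 0.372 with each array left out.

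For enarodustat against wild type, the mean of the probes gave -0.0651 for Cited2. Egln1 was 0.0036 with the array median, 0.0643 with the position block, 0.0016 without the pair of arrays and -0.0505 to 0.0511 with each array left out. Egln3 was -0.0126 with normexp, -0.461 with array weights, -0.124 with the tubule covariate, -0.0508 with the position block, -0.383 without the pair of arrays and -0.393 to 0.323 with each array left out. Vhl was -0.0299 with array weights and -0.00806 without the pair of arrays, and Arnt was -0.0889 to 0.317 with each array left out.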
